A study of Mus musculus with 24 samples.

Results

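The glutathione system of the mouse ventral prostate was described through 32 listed genes that encode glutathione transferases, glutathione peroxidases, the enzymes of glutathione synthesis and recycling, and a few related reductases. A gene was measured by a probe set (a group of array probes for the same transcript) annotated to that gene alone, and where a gene had several such probe sets the brightest by its mean over all 24 arrays was used and the others served as a check. On these terms 31 of the 32 genes were measured, by 45 of the 22690 probe sets on the array, and Ggt1, which encodes a cell-surface enzyme that breaks glutathione down, had no probe set of its own. Of the 31 genes, 29 passed the filter on low values and were tested, among 9431 genes tested in all. The filter kept a probe set that lay above the 40th percentile of an array's own values on at least 4 arrays. Mgst2, a membrane transferase, exceeded it on 0 arrays and Nqo1, a quinone reductase, on 1 array, so both were left untested.

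Total RNA from the ventral prostate was hybridised to 24 single-colour Affymetrix MOE430A arrays, 4 biological replicates from each of 6 inbred strains labelled C57BL/6, AKR, SWR, BALB/c, 129X1 and FVB. All mice were wild type, 8 weeks old, untreated and kept on a standard diet, so strain was the only labelled difference between groups. The series title describes a search for cancer modifiers through expression in parental strains, and the question asked here is which glutathione genes differed among those strains. The lobe was taken whole and not sorted into cell types, the labels give no substrain, and they do not state whether a replicate is 1 mouse or a pool.

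Glutathione is a small thiol made from glutamate, cysteine and glycine. Glutamate-cysteine ligase (a catalytic subunit, Gclc, and a modifier subunit, Gclm) and glutathione synthetase (Gss) build it. Peroxidases spend it to reduce hydrogen peroxide and lipid peroxides, glutathione reductase (Gsr) returns the oxidised form to use with NADPH, and transferases attach it to electrophiles so that these can be exported. Many of these genes are targets of the transcription factor Nrf2 (Nfe2l2), which binds antioxidant response elements, and the loss of the pi-class transferase is a common event in human prostate cancer.

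Values are log2 of the deposited intensity plus 16, after the arrays were scaled to a common trimmed mean. A difference of 1 on that scale is a 2-fold change, and folds of faint transcripts are compressed by the added 16. The 40th percentile of the arrays lay between 5.52 and 5.72 on this scale. Error is the SD over the 4 arrays of a strain. Tests used limma, a linear model with moderated variances fitted to all 15775 probe sets that passed the filter, and a call is a Benjamini-Hochberg adjusted p under 0.05 over all of them. The number of arrays sets the precision here, since arrays carry no count depth. The luminal markers Spink1, Krt8, Krt18, Azgp1 and Pbsn were above the 40th percentile on all 24 arrays. All 5 were called, and they did not share an order of strains. Azgp1 had its highest mean in AKR (11.93) and its lowest in BALB/c (9.56), while Pbsn was highest in BALB/c (12.92). Of the seminal vesicle genes, Svs2, Svs4 and Svs6 were above that percentile on 0 arrays, Svs3a on 6 and Svs5 on 15. The mean of the adipocyte markers, each centred over the 24 arrays, had medians of 1.57 in FVB and 1.22 in BALB/c, and lay between -0.98 and -0.85 in C57BL/6 (5 of 6 measured markers called). All 8 smooth muscle markers were called, with the lowest summed level in BALB/c and the highest strain mean in FVB. All 4 basal cell markers were called, with strain means from 0.62 in 129X1 and 0.48 in SWR to -0.57 in BALB/c and -0.58 in C57BL/6. In bulk tissue, fewer cells of a type and less RNA per cell cannot be told apart.

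Promoters of Mgst1, Gpx3, Gstk1 and Gclm are shown because these genes carry the results that follow, as a membrane transferase, a secreted peroxidase, the kappa transferase and a synthesis subunit. Each window runs from 250 bases before to 50 bases after a RefSeq start site of GRCm38.p6, on the plus strand, and is the reference sequence, which comes from a C57BL/6 mouse and not from the other strains. Capitals mark the core of the antioxidant response element, TGACNNNGC, searched on both strands. The windows are chr6:138140277-138140576 for Mgst1, chr11:54902604-54902903 for Gpx3, chr6:42245685-42245984 for Gstk1 and chr3:122245307-122245606 for Gclm.
Mgst1: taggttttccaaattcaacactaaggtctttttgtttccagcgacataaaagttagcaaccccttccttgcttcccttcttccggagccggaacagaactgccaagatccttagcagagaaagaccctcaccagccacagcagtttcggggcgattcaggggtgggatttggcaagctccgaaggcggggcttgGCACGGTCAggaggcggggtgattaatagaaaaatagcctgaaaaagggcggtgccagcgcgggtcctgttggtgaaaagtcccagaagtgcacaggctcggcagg
Gpx3: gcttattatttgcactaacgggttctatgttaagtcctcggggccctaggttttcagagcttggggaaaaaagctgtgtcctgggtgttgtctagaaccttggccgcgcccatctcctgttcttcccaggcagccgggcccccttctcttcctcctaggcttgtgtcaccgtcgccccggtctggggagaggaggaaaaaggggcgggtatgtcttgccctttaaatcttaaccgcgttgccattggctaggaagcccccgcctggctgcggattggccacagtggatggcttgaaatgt
Gstk1: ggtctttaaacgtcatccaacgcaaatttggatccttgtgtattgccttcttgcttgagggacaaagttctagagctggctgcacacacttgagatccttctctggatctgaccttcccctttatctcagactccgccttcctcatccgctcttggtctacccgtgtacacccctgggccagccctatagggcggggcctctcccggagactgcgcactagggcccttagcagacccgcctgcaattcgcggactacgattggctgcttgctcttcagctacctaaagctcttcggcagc
Gclm: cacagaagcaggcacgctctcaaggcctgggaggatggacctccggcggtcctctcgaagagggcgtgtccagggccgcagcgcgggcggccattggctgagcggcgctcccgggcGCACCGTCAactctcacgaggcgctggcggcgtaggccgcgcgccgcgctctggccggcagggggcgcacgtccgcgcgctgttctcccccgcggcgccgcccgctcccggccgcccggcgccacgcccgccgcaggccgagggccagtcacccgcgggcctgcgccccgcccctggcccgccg
The Mgst1 and Gclm windows each hold 1 match on the minus strand, and the Gpx3 and Gstk1 windows hold none.

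The strains differed strongly in a few glutathione genes and by less in many others. Among the 29 tested members, 17 differed among the 6 strains by the moderated F test (58.6%), beside 36.4% of all tested probe sets and 35.1% of all tested genes at their brightest probe set. The median range between the highest and lowest strain mean was 0.62 for the members and 0.50 for all tested probe sets. In 7 members the called range was at least 1 on the log2 scale, a size reached by 9.09% of all probe sets: Mgst1, Gpx3, Gsta4, Gpx2, Blvrb, Gsto1 and Gstk1. In 3 of these, Mgst1, Gpx3 and Gsta4, it was at least 2, as in 1.2% of all probe sets. Over the 15 pairs of strains, 104 of the 435 member tests were called (23.9%), beside 11.4% over all probe sets. Of the 24 members above the 40th percentile on at least 21 arrays, 14 were called by the F test. Of the 5 above it on fewer arrays 3 were called (Gpx2, Blvrb and Gstm6). Blvrb and Gstm6 passed the filter through the strains where they were high.

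**Figure D1:**
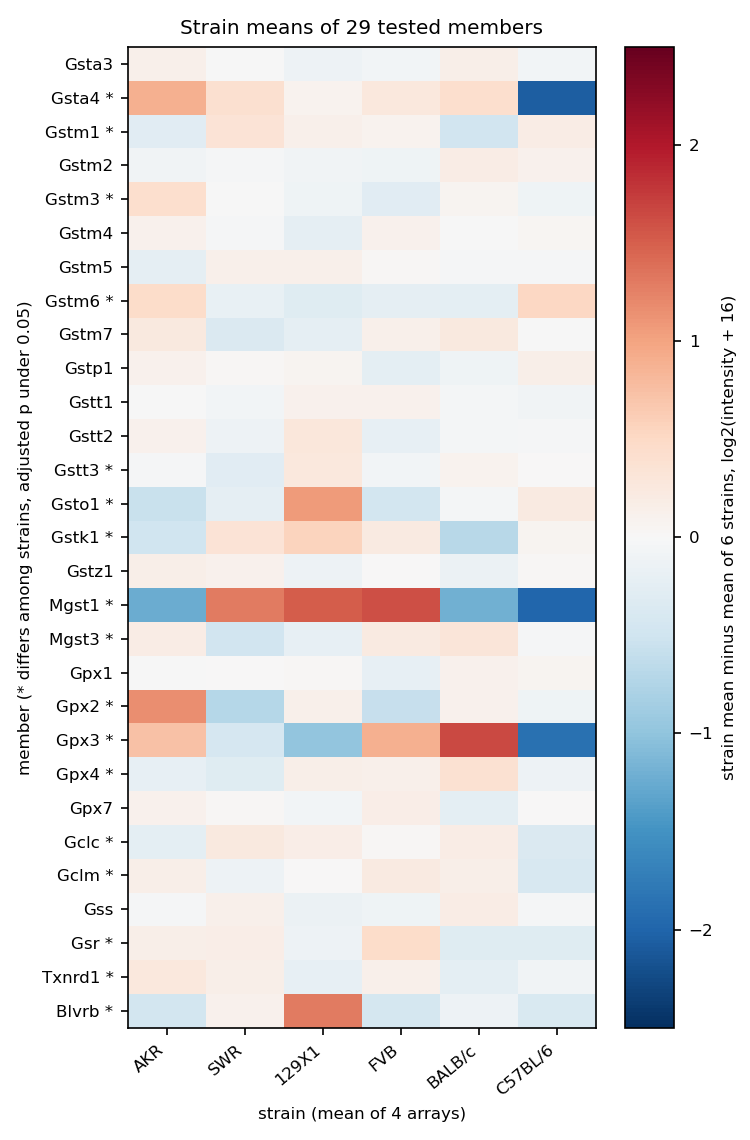
Log2 level of each tested member in each strain, as the difference of the strain mean (n = 4 arrays) from the mean of the 6 strains. Rows are genes grouped by role, columns are strains, and an asterisk marks the 17 genes called by the F test among strains. Mgst1, Gpx3 and Gsta4 carry the strongest colours, with C57BL/6 lowest in each.

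Mgst1, a transferase of the endoplasmic reticulum and outer mitochondrial membrane that also reduces lipid peroxides, had the widest range of the members. FVB arrays read 10.64, 11.02, 10.87 and 10.74, 129X1 arrays 10.45, 10.99, 10.83 and 10.60, and SWR arrays 10.51, 10.39, 10.66 and 10.44. BALB/c arrays read 8.37, 7.44, 7.95 and 8.21, AKR arrays 8.21, 8.26, 7.82 and 7.56, and C57BL/6 arrays 7.46, 7.12, 6.94 and 7.37. Every FVB, 129X1 and SWR array was above every array of the other strains. FVB was 12.1-fold above C57BL/6 (adjusted p = 1.09e-12, limma), and 11 of the 15 pairs were called. The means of FVB, 129X1 and SWR did not differ beyond their spread in any pair, nor did those of BALB/c and AKR. Both of these exceeded C57BL/6, but the BALB/c arrays overlapped those of C57BL/6 and that call (0.00591) was lost with the adipocyte or the erythroid marker level in the model. The mean smooth muscle level was also higher in FVB (0.45), 129X1 (0.38) and SWR (0.25) than in AKR (-0.18), C57BL/6 (-0.21) and BALB/c (-0.70), and the fibroblast level was 0.24, 0.19 and 0.12 in FVB, 129X1 and SWR and -0.32, -0.15 and -0.08 in AKR, C57BL/6 and BALB/c. With the smooth muscle level in the model the FVB minus C57BL/6 difference was 3.40 on the log2 scale, against 3.60 without it, and the part of basal cells and fibroblasts was not tested. A fainter Mgst1 probe set was above the 40th percentile on 0 arrays, so it gave no check.

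**Figure D2:**
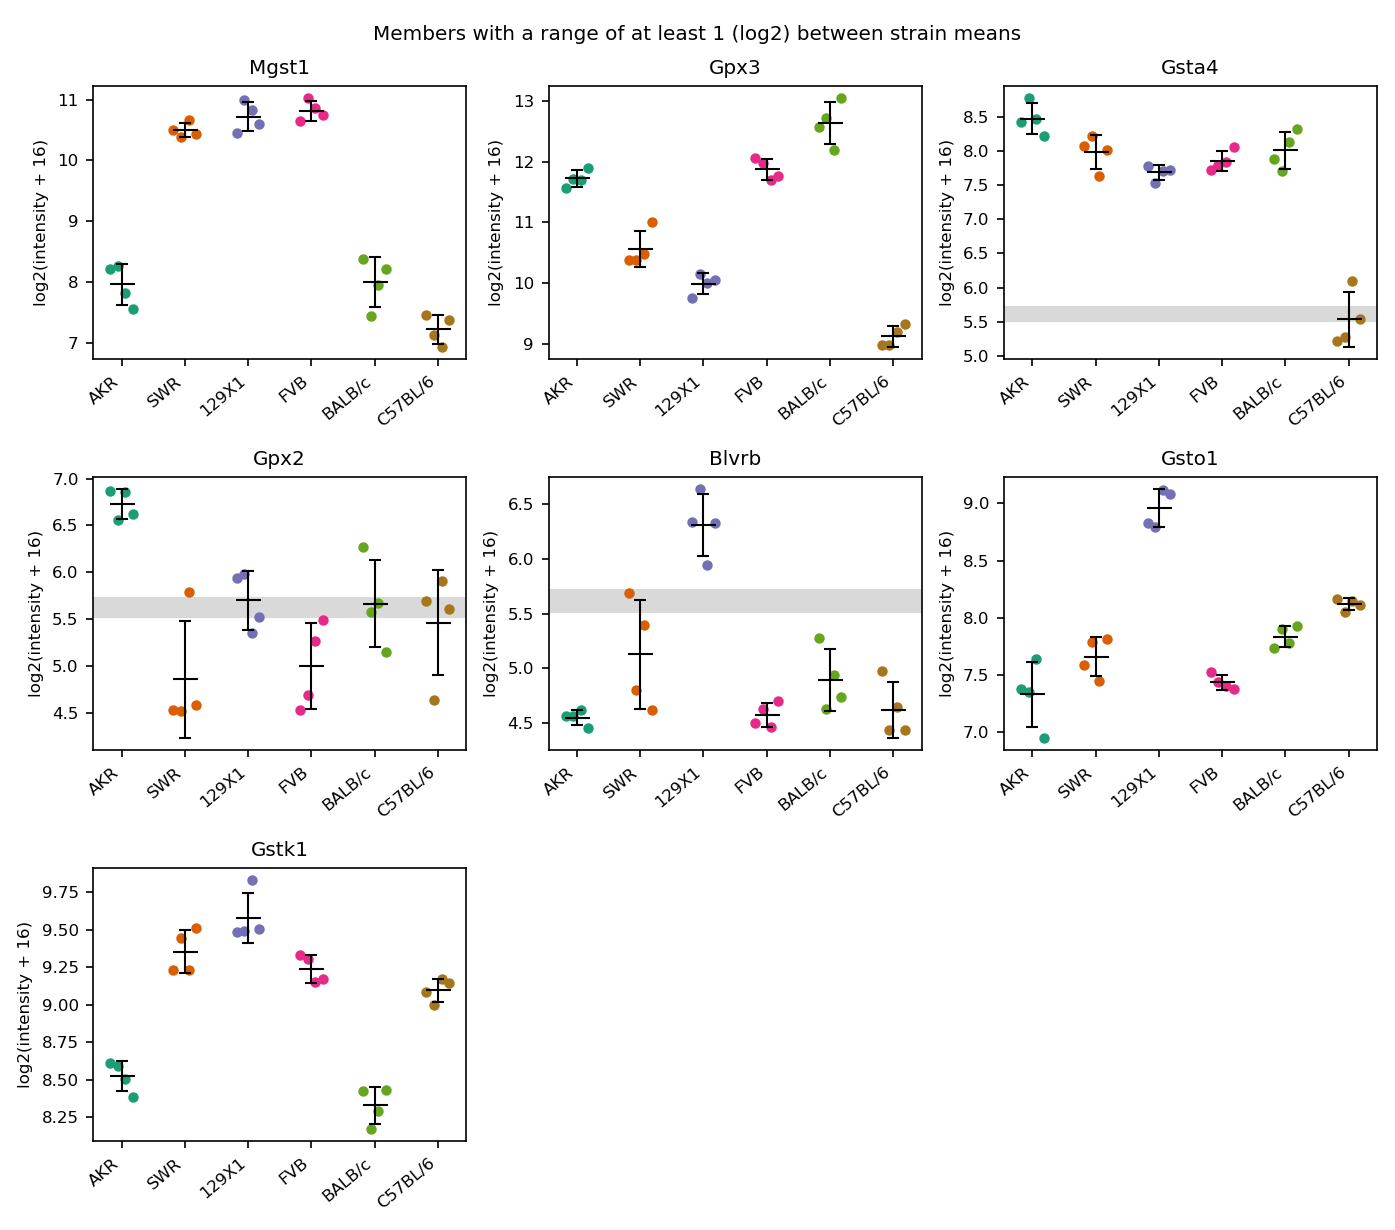
Log2 of intensity plus 16 for the 7 members with a called range of at least 1, with a point for each array and a bar for the mean ± SD of 4 arrays per strain; the grey band is the range of the arrays' 40th percentiles (5.52 to 5.72). Gsta4 falls to the band in C57BL/6, and Gpx2 and Blvrb clear it on all 4 arrays only in AKR and in 129X1.

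The other membrane transferase tested, Mgst3, which also reduces lipid peroxides, varied less. Its arrays lay between 8.25 and 8.85 in BALB/c and between 7.66 and 7.78 in SWR, with no overlap. BALB/c was 1.72-fold above SWR (adjusted p = 0.000209, limma), and SWR was 1.49-fold below the mean of the other 5 strains (0.000632). The pair call was lost with the smooth muscle level in the model (0.128).

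Gsta4, an alpha-class transferase known for conjugating the lipid peroxidation product 4-hydroxynonenal, was low in C57BL/6. AKR arrays read 8.43, 8.77, 8.47 and 8.21, and C57BL/6 arrays read 5.22, 5.28, 6.10 and 5.55. Arrays of SWR, 129X1, FVB and BALB/c lay between 7.54 and 8.33, so that no array of any other strain came near the C57BL/6 values. In C57BL/6 only 1 of 4 arrays exceeded the 40th percentile, against all 20 arrays of the other strains. C57BL/6 was 5.52-fold below the mean of the other 5 strains (adjusted p = 4e-12, limma), and AKR exceeded C57BL/6 by 2.93 on the log2 scale, a value of 3.33 with 4 added in place of 16 and 2.08 with 64. The other alpha-class member, Gsta3, was above the 40th percentile on 6 arrays and was not called (F adjusted p = 0.404). A second Gsta3 probe set, above the 40th percentile on 8 arrays, was called (6.13e-05), with means of 6.07 in SWR and 4.72 in C57BL/6, so the probe sets of that gene disagreed.

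The mu-class transferases, which conjugate many aromatic and epoxide compounds, sit in a cluster of near-identical genes whose probes can cross-hybridise, and their differences were small. Of 7 tested, Gstm1, Gstm3 and Gstm6 were called by the F test. Gstm1 averaged 9.61 ± 0.10 in SWR and 8.79 ± 0.26 in BALB/c (SD, n = 4 each), a 1.76-fold difference without overlap (adjusted p = 0.000301, limma). At the other 3 Gstm1 probe sets BALB/c was also lowest, but the SWR to BALB/c difference was called at only 1 of them. BALB/c had the lowest smooth muscle marker level, and with that level in the model the difference was 0.47 on the log2 scale and not called (0.322). Gstm3 averaged 7.58 ± 0.16 in AKR and 6.89 ± 0.29 in FVB, and AKR was 1.41-fold above the mean of the other 5 (0.0129). The AKR to FVB call was lost with the adipocyte (0.318) or the smooth muscle level (0.297) in the model, and the F call was lost under those and without AKR replicate 1 or 3 or FVB replicate 2 or 3. Gstm6 exceeded the 40th percentile on 4 arrays, 2 of AKR and 2 of C57BL/6. It passed the filter only through these strains, where it was highest, and its call was lost under several settings. Gstm2, Gstm4, Gstm5 and Gstm7 were not called at their brightest probe set, although a second Gstm7 probe set was (0.004).

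Gsto1, the omega-class transferase, which reduces dehydroascorbate and methylated arsenic, was highest in 129X1. Its arrays read 8.83, 8.80, 9.12 and 9.08 in 129X1 and 7.38, 7.35, 7.64 and 6.95 in AKR. C57BL/6 came next with 8.17, 8.05, 8.15 and 8.11, and arrays of SWR, FVB and BALB/c lay between 7.37 and 7.93. No array of another strain reached the lowest 129X1 array. 129X1 was 2.43-fold above the mean of the other 5 strains (adjusted p = 1.43e-09, limma). AKR (3.98e-05) and FVB (0.000627) were each below the mean of their other 5. The FVB call was lost with the adipocyte level in the model (0.0506). With the smooth muscle level in the model the call of 129X1 against BALB/c was lost (0.0885). A second Gsto1 probe set gave a 129X1 minus AKR difference of 2.30 on the log2 scale (4.4e-08), and there the 129X1 arrays (7.80 to 8.18) overlapped those of C57BL/6 (7.32 to 7.92).

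Gstk1, the kappa-class transferase of mitochondria and peroxisomes, was low in 2 strains. 129X1 arrays read 9.48, 9.49, 9.83 and 9.51, against 8.43, 8.18, 8.29 and 8.43 in BALB/c and 8.61, 8.59, 8.50 and 8.39 in AKR. Arrays of SWR, FVB and C57BL/6 lay between 9.00 and 9.51, above every BALB/c and AKR array. 129X1 exceeded BALB/c 2.37-fold (adjusted p = 8.34e-09, limma), and 10 of 15 pairs were called. With the smooth muscle level in the model that difference was 1.04 on the log2 scale (0.0069). The calls of FVB against BALB/c (0.172) and 129X1 against C57BL/6 (0.194) were lost there. That of 129X1 against FVB (0.0435) was lost under 14 alternatives. The part of smooth muscle cells was not tested otherwise.

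Of the 5 tested genes of the pi, theta and zeta classes, 4 were not called. Gstp1, the pi-class transferase, lay between strain means of 9.53 in C57BL/6 and 9.15 in FVB, and Gstt1, Gstt2 (theta class) and Gstz1 (the zeta class, which also isomerises maleylacetoacetate in tyrosine breakdown) had ranges of 0.21 to 0.48 on the log2 scale. Their adjusted p by the limma F test ran from 0.203 to 0.457. Gstt3 was called (0.0217): it averaged 9.33 ± 0.06 in 129X1 and 8.78 ± 0.17 in SWR (SD, n = 4 each), a 1.46-fold difference (0.00456).

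Gpx3, the secreted peroxidase of plasma and extracellular fluid, differed between almost every pair of strains. BALB/c arrays read 12.57, 12.72, 12.20 and 13.04, and C57BL/6 arrays read 8.98, 8.99, 9.19 and 9.33. FVB arrays read 12.05, 11.97, 11.70 and 11.76, AKR arrays 11.57, 11.72, 11.70 and 11.90, SWR arrays 10.38, 10.38, 10.48 and 11.01, and 129X1 arrays 9.75, 10.16, 10.01 and 10.05. All BALB/c arrays were above, and all C57BL/6 arrays below, every array of the other strains. BALB/c was 11.4-fold above C57BL/6 (adjusted p = 1.12e-13, limma), and 14 of 15 pairs were called, FVB against AKR being the exception.

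Gpx3 is abundant in adipose tissue, and the median adipocyte marker level was high in FVB and BALB/c, as given above. Single arrays spread from -0.47 to 2.19 in FVB and from -0.08 to 2.12 in BALB/c. In AKR the adipocyte level lay between -1.07 and -0.42 and the Gpx3 mean was 11.72 ± 0.14, and in FVB the Gpx3 mean was 11.87 ± 0.17 (SD, n = 4 each). With the adipocyte level in the model the BALB/c minus C57BL/6 difference was 3.53 on the log2 scale, against 3.51 without it. The part of adipocytes in the Gpx3 differences was not tested otherwise. After quantile normalization the calls of FVB and AKR against BALB/c were lost (0.176 and 0.0508), and that of SWR against 129X1 was lost under quantile normalization and without SWR replicate 4, 129X1 replicate 1 or 129X1 replicate 3. With the smooth muscle level in the model, the call of 129X1 against C57BL/6 was lost (0.169).

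**Figure D3:**
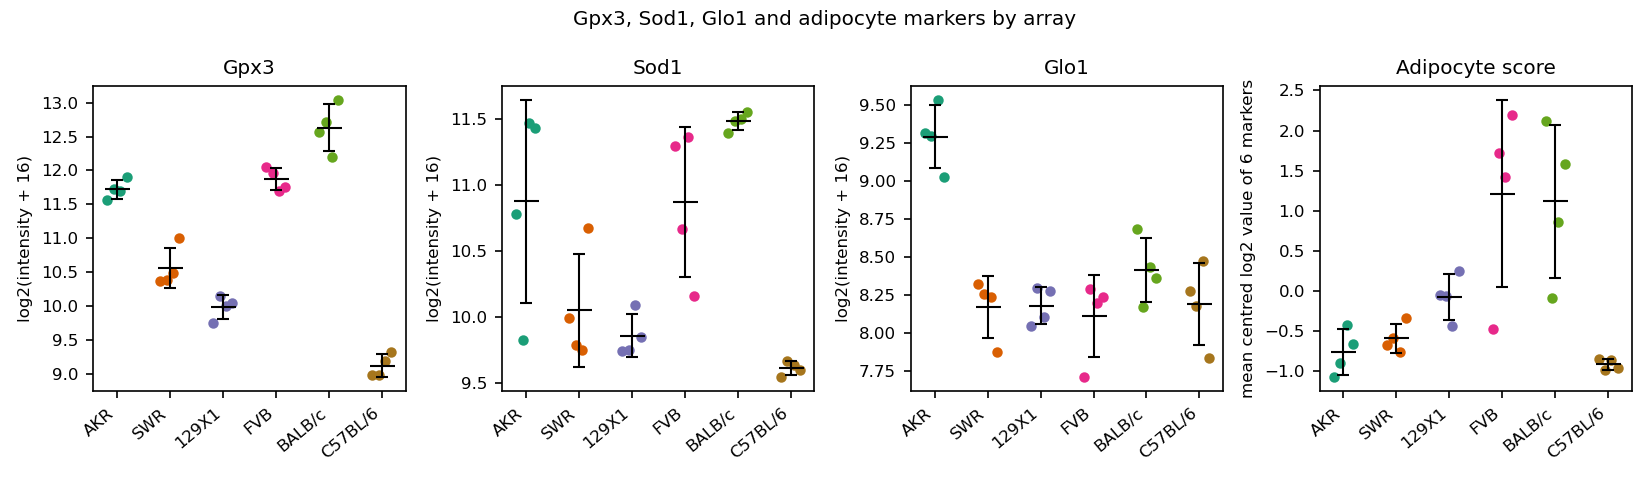
Log2 of intensity plus 16 for Gpx3, Sod1 and Glo1, and the mean centred log2 value of 6 adipocyte markers, with a point for each array and a bar for the mean ± SD of 4 arrays per strain. C57BL/6 is lowest and BALB/c highest for Gpx3 and Sod1, and AKR is highest for Glo1.

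Gpx2, the peroxidase known from gut epithelium, was faint and clearest in AKR. Its AKR arrays read 6.87, 6.56, 6.86 and 6.62, and its SWR arrays 4.53, 4.52, 5.79 and 4.59. Arrays of 129X1, FVB, BALB/c and C57BL/6 lay between 4.53 and 6.27, so every AKR array was above all the others. All 4 AKR arrays exceeded the 40th percentile, against 2 each of 129X1, BALB/c and C57BL/6, 1 of SWR and 0 of FVB. The other strains thus lay mostly under it, and no fold is given. AKR exceeded the mean of the other 5 by 1.39 on the log2 scale (adjusted p = 0.000248, limma). Its excess over SWR was 1.87 on that scale, 2.56 with 4 added and 0.98 with 64.

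Gpx4, which reduces phospholipid hydroperoxides inside membranes and restrains ferroptosis, averaged 9.16 ± 0.17 in BALB/c and 8.49 ± 0.08 in SWR (SD, n = 4 each). BALB/c was 1.36-fold above the mean of the other 5 strains (adjusted p = 0.00167, limma), a call lost with the smooth muscle level in the model (0.079). A second Gpx4 probe set was also called (F 0.00033) with BALB/c highest. Gpx1, the widespread cytosolic peroxidase, had a range of 0.31 on the log2 scale and Gpx7, an endoplasmic reticulum peroxidase above the 40th percentile on 12 arrays, one of 0.40, and neither was called (F adjusted p of 0.23 and 0.325).

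The synthesis genes moved little. Gclm averaged 7.30 ± 0.24 in FVB and 6.66 ± 0.21 in C57BL/6 (SD, n = 4 each), and C57BL/6 was 1.40-fold below the mean of the other 5 (adjusted p = 0.00639, limma), a call lost with the adipocyte or the erythroid marker level in the model. Gclc averaged 7.46 ± 0.05 in SWR and 6.85 ± 0.18 in C57BL/6 (0.0192), a call lost with the smooth muscle level in the model (0.135) and without C57BL/6 replicate 1, 2 or 3. A second Gclc probe set had its highest mean in C57BL/6, where the SWR minus C57BL/6 difference was -0.38 (0.0613), so the direction for Gclc depended on the probe set. Gss was not called (F 0.27).

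Gsr, the recycling enzyme, was highest in FVB. Its FVB mean was 8.04 ± 0.20, against 7.28 ± 0.21 in C57BL/6 and 7.28 ± 0.08 in BALB/c (SD, n = 4 each). FVB was 1.45-fold above the mean of the other 5 strains (adjusted p = 0.000856, limma), and 7 of 15 pairs were called. A second Gsr probe set also had its highest mean in FVB (F 6.83e-05), but C57BL/6 came second there with 7.10 ± 0.18, so the low C57BL/6 level was seen at 1 of the 2 probe sets.

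**Figure D4:**
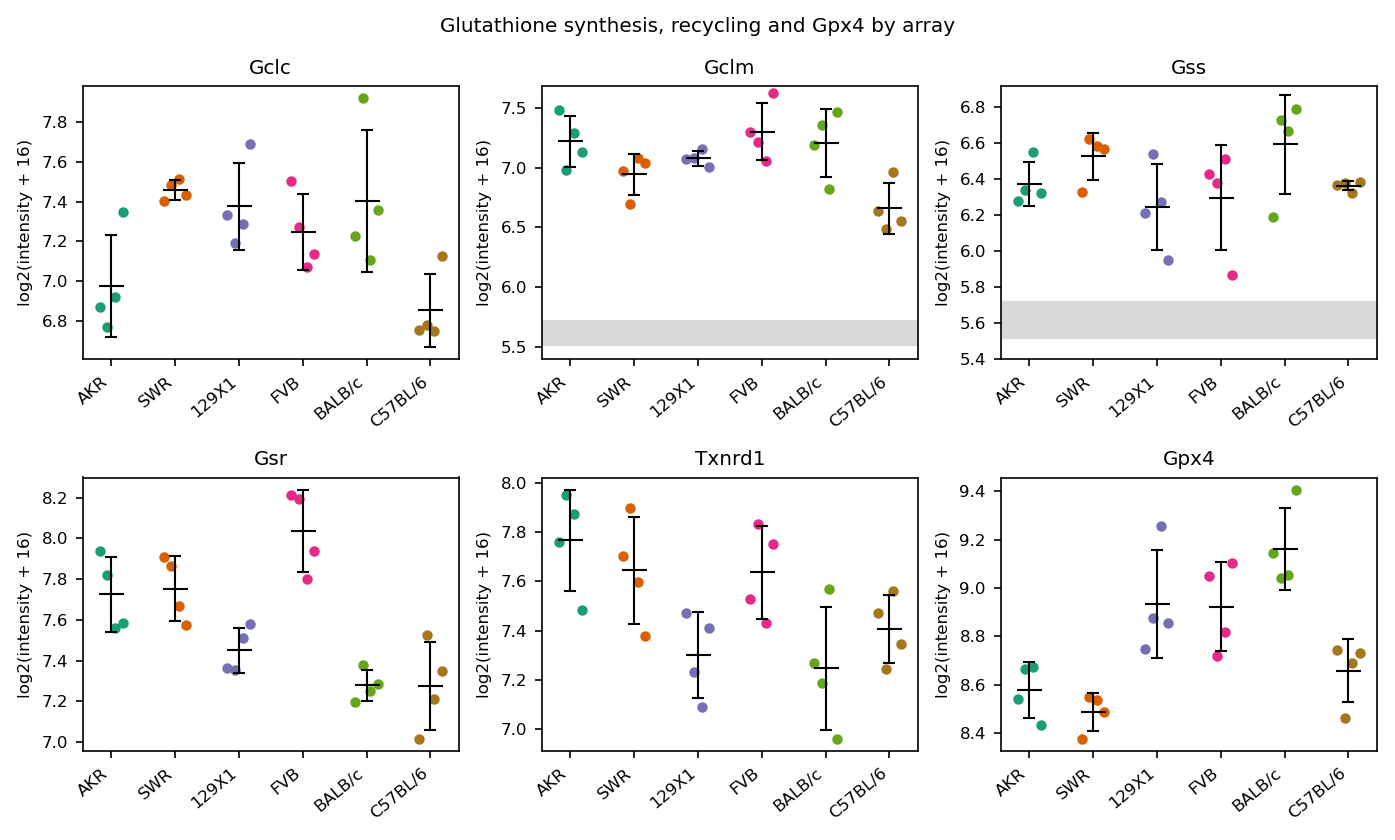
Log2 of intensity plus 16 for the genes of glutathione synthesis and recycling, Txnrd1 and Gpx4, with a point for each array and a bar for the mean ± SD of 4 arrays per strain. Gsr is highest in FVB, with a mean of 8.04, and Gclm is lowest in C57BL/6, with a mean of 6.66.

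Blvrb, a biliverdin and flavin reductase, exceeded the 40th percentile on all 4 arrays of 129X1 and on 1 of SWR, and passed the filter through 129X1. 129X1 arrays read 6.34, 6.64, 5.94 and 6.33, and AKR arrays read 4.57, 4.56, 4.62 and 4.45. Arrays of SWR, FVB, BALB/c and C57BL/6 lay between 4.43 and 5.69, below every 129X1 array. No fold is given, since the other strains lay mostly under the percentile: the 129X1 excess over AKR was 1.76 on the log2 scale, 2.56 with 4 added in place of 16 and 0.84 with 64. All 5 called Blvrb pairs involved 129X1. Txnrd1, the cytosolic thioredoxin reductase, averaged 7.77 ± 0.20 in AKR and 7.25 ± 0.25 in BALB/c, with overlapping arrays (0.0174), and that call was lost without AKR replicate 2 (0.0569) or BALB/c replicate 4 (0.0679), and with the adipocyte level in the model (0.108). A second Txnrd1 probe set also had AKR highest and BALB/c lowest (0.00601).

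Next, strains were set 1 at a time against the mean of the other 5. C57BL/6 was higher in 1 member and lower in 7 of 29 (24.1%), beside 5.65% of all probe sets higher and 5.45% lower. The 7 lower genes were Gsta4, Mgst1, Gpx3, Gclc, Gclm, Gsr and Blvrb. The higher one was Gstm6, which passed the filter only through C57BL/6 and AKR. Second probe sets of Gclc and Gsr did not show C57BL/6 low, and Blvrb was called lower in C57BL/6, AKR and FVB against a mean that held the 129X1 arrays. The calls for Gsta4, Mgst1 and Gpx3 held under all 35 other settings, while those for Blvrb and Gstm6 were each lost under more than 20. The total of 8 C57BL/6 calls became 5 without replicate 1 or replicate 2, 4 without replicate 3, 5 with the adipocyte level in the model and 4 with the erythroid level.

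In 129X1, 5 members were higher and 1 was lower (background 6.38% and 5.27%): Mgst1, Gsto1, Gstk1, Blvrb and Gstt3 were higher and Gpx3 was lower. Blvrb passed the filter through its 129X1 arrays, so its 129X1 call is not separate from that selection. The Gstt3 call was lost under 5 alternatives. AKR had 4 members higher (Gsta4, Gstm3, Gpx2 and Gpx3) and 4 lower (Gsto1, Gstk1, Mgst1 and Blvrb), with backgrounds of 4.67% and 5.12%. FVB had 4 higher (Mgst1, Gpx3, Gsr and Gstk1) and 2 lower (Gsto1 and Blvrb), with backgrounds of 3.45% and 3.65%. Its 6 calls became 3 with the adipocyte level in the model, and its Gstk1 call was lost under 26 alternatives. BALB/c had 4 higher (Gpx3, Gpx4, Gsta4 and Mgst3) and 4 lower (Mgst1, Gstk1, Gstm1 and Gsr), or 13.8% each way beside backgrounds of 8.3% and 10.6%, and its 8 calls became 3 with the smooth muscle level. SWR had 4 higher (Mgst1, Gstk1, Gsta4 and Gstm1) and 5 lower (Mgst3, Gpx2, Gpx3, Gpx4 and Gstt3), with backgrounds of 5.52% and 5.04%, and its 9 calls became 5, 4 and 5 without replicates 1, 2 and 4. The part of those cell types in the results was not tested beyond these models. The Gsta4 calls of SWR and BALB/c were against a mean that held the low C57BL/6 arrays, and were lost under 4 and 3 alternatives. In pairs, neither strain differed in Gsta4 from any strain but C57BL/6. The AKR Gsta4 call was against a mean with the same C57BL/6 arrays, and it held under all 35 alternatives. In pairs AKR was not called against SWR or BALB/c. Its calls against FVB and 129X1 were lost under 9 and 2 alternatives. Mgst1 and Gpx3 were called in all 6 strains, and they took different sides in AKR, SWR, 129X1 and BALB/c.

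**Figure D5:**
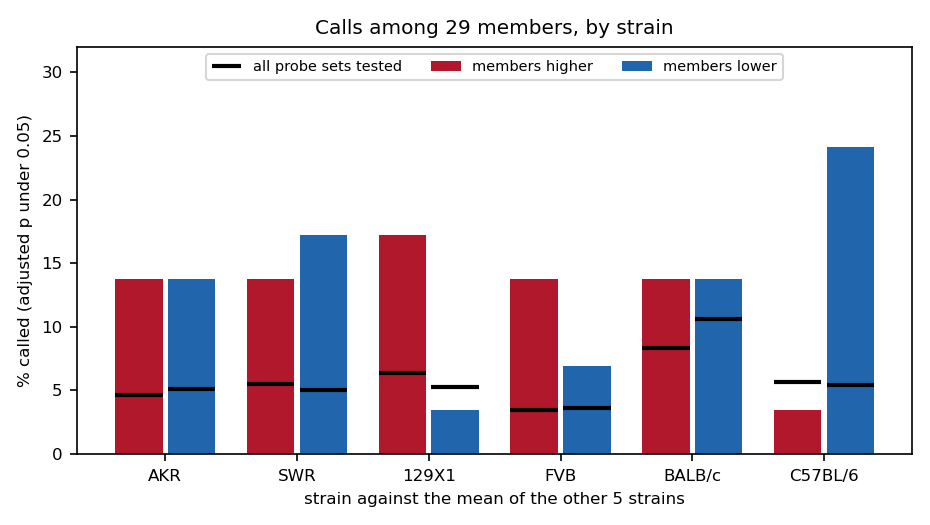
Share of the 29 tested members called higher or lower in a strain set against the mean of the other 5, in percent, with black lines for the share of all 15775 tested probe sets. The lower bar of C57BL/6, at 24.1%, is the tallest, and it counts Gclc and Gsr, whose second probe sets did not show C57BL/6 low, and Blvrb.

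Other genes of the pathway were taken as 4 lists. Of the regulators and other targets of Nrf2, 8 of 18 tested genes were called by the F test, of the peroxiredoxins, thioredoxins and glutaredoxins 8 of 11, of the superoxide dismutases and catalase 3 of 5, and of other genes of glutathione supply, use and breakdown 11 of 19, again beside 36.4% of all probe sets. The Nrf2 count became 5 with either the adipocyte or the smooth muscle level in the model. Nfe2l2 itself differed little, with BALB/c 1.20-fold below the mean of the other 5 (adjusted p = 0.0215, limma), and its inhibitor Keap1 was not called (F 0.576). Cbr3, a carbonyl reductase, was 1.67-fold lower in C57BL/6 than the mean of the other 5 (6.48e-07). Ephx1, the microsomal epoxide hydrolase, was 1.38-fold higher in C57BL/6 (0.000318) and 1.47-fold lower in BALB/c (2.85e-05). Glrx, which reduces glutathione-protein disulfides, was 1.75-fold lower in C57BL/6 (0.000345), but its second probe set was not called (F 0.291) and was lowest in SWR, while Prdx3, the mitochondrial peroxiredoxin, was 1.62-fold higher (9.79e-07).

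Sod1, the cytosolic superoxide dismutase that makes hydrogen peroxide, had its highest mean in BALB/c and its lowest in C57BL/6, the same strains as Gpx3. Its arrays read 11.39, 11.48, 11.50 and 11.55 in BALB/c and 9.54, 9.66, 9.64 and 9.59 in C57BL/6. AKR arrays spread from 9.82 to 11.47 and FVB arrays from 10.16 to 11.36, wider than the other strains. BALB/c was 3.67-fold above C57BL/6 (adjusted p = 5.83e-05, limma), but a second Sod1 probe set was not called (F 0.194).

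Glo1, which clears methylglyoxal with glutathione as cofactor, was high in AKR. AKR arrays read 9.31, 9.30, 9.54 and 9.03, and the 20 arrays of the other strains lay between 7.71 and 8.68, below every AKR array. AKR was 2.12-fold above the mean of the other 5 (adjusted p = 1.15e-06, limma), and all 3 Glo1 probe sets were called.

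Across promoters, the antioxidant response element core TGACNNNGC was present in at least 1 window of 7 of the 28 listed genes with an entry (Gclm, Ggt1, Gsta3, Gstm5, Gstm7, Mgst1 and Txnrd1), beside 14% of all genes. The AP-1 motif TGANTCA was present in 3 (Gstm5, Gstp1 and Mgst2), beside 8.97% of all genes. A gene with several windows has more places for a match. By window, the antioxidant response core was in 9 of 45 windows of the listed genes, beside 12.4% of all windows. For AP-1 this was 3 of 45, beside 7.81%. Both were searched on both strands. Of the 7 members with a called range of at least 1, Mgst1 held the antioxidant response core. Gsta4, Gstt2, Gclc and Gsr had no entry.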

How the data were processed

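The values deposited are linear intensities, 1 for each array and probe set. The submitters' processing notes name MAS5, and its settings and detection calls are not given in the sources used here. The deposited intensities had a mean of 143 on every array, with 11 values of 0. Their 2% trimmed means ran from 91.4 to 105, so each array was rescaled to 98.7, and log2 was taken after adding 16. From the 22690 probe sets, 64 controls and 6851 that were not above their array's 40th percentile on at least 4 arrays were left out, leaving 15775. Gene names came from the platform annotation, in which 20393 probe sets have 1 symbol, 691 several and 1606 none, and only those with 1 symbol were used. Probes were not checked against the transcript sequence of each strain.

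Limma 3.58.1 in R 4.3.3 was fitted with 1 coefficient per strain to all 15775 probe sets (18 residual and 4.85 prior degrees of freedom), with two-sided Benjamini-Hochberg adjusted p under 0.05. The contrasts were the F test among the 6 strains, the 15 pairs, and 1 strain against the mean of the other 5. The workflow was tested on simulated data. For each member the text names its widest pair or the strain that differs most from the other 5. The 32 members, the related lists and the marker lists were chosen with earlier results of these data known. A marker level is the mean of a list's log2 values, each centred over the 24 arrays. Sequences are from RefSeq for GRCm38.p6, and no other coordinates were used because the files name no build. The 11 alternatives were the deposited scale, quantile normalization, 4 or 64 added, no filter, the replicate number as a block, a mean-variance trend, and the adipocyte, smooth muscle, skeletal muscle and erythroid levels as covariates, besides leaving out each of the 24 arrays and other probe sets of a gene.

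Replicate numbers do not pair the arrays in the labels. After strain means were removed, the mean correlation over 60 pairs of same-numbered arrays was 0.00532, and 3 of 24 arrays had their best match at the same number. The labels call the arrays biological replicates, and p-values measure the spread between these arrays.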

Additional observations from a re-analysis of the deposited data

Results flagged for a closer look

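In 174 groups of 4 arrays (29 members in 6 strains), 9 groups (5.17%) held 1 array far from the other 3, and chance alone marks about 5% of such groups by this measure. The widest gap was in Gpx2, where SWR replicate 3 read 5.79 and the other SWR arrays lay between 4.52 and 4.59. Gpx3 read 11.01 in SWR replicate 4, with the other SWR arrays between 10.38 and 10.48. Gstk1 read 9.83 in 129X1 replicate 3, against 9.48 to 9.51. Gclc read 7.13 in C57BL/6 replicate 4, against 6.75 to 6.78. In the mu class, Gstm2 read 9.28 in AKR replicate 3 (others 9.04 to 9.07), Gstm5 read 7.95 in AKR replicate 3 (others 7.76 to 7.78) and 7.77 in BALB/c replicate 2 (others 8.05 to 8.08), and Gstm3 read 7.41 in SWR replicate 3 (others 7.04 to 7.10). Gstt1 read 8.03 in SWR replicate 1 (others 8.31 to 8.35).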

How the results depend on the processing

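Of 599 values of the called members' widest pairs under alternatives, 573 kept direction and call, 25 lost the call and 1 reversed, that of Gclc at its second probe set (SWR minus C57BL/6, -0.38). Of 17 F calls, 13 held under all 35 settings that kept the probe set; Gstm3, Gstm6, Gstt3 and Gclm each lost theirs under at least 1. At another probe set, Gstm1 lost its F call too (0.227). Several counts moved by over 1.5 times. With the adipocyte level in the model these were FVB to 3, C57BL/6 to 5 and the Nrf2 list to 5. With the smooth muscle level they were the pair calls to 69, BALB/c to 3 and the Nrf2 list to 5. With the erythroid level C57BL/6 moved to 4. SWR moved to 5, 4 and 5 without its replicates 1, 2 and 4. C57BL/6 moved to 5, 5 and 4 without its replicates 1, 2 and 3. The cause was not tested. Leaving out each array gave 16 to 18 F calls and 90 to 108 pair calls, and counts against the other 5 of 6 to 10 for AKR, 4 to 10 for SWR, 5 to 7 for 129X1, 4 to 6 for FVB, 7 to 9 for BALB/c and 4 to 8 for C57BL/6. For the lists it gave 6 to 9 (Nrf2), 7 to 8 (peroxiredoxins and relatives), 2 to 3 (superoxide dismutases and catalase) and 10 to 13 (other glutathione genes). With the replicate number as a block, 18 members were called by the F test and 103 member pairs were called, and no count moved by over 1.5 times. Gsta3, Gstm6, Gpx2, Gpx7 and Blvrb lay at or under the arrays' 40th percentile on at least 12 of 24 arrays, which limits their folds. Outside 129X1, only 1 SWR array exceeded it for Blvrb.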

Other observations

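Idh1, Gpx8, Ptges and Cbs, genes of glutathione supply and use, had called ranges of at least 1 on the log2 scale. Idh1, a cytosolic source of NADPH, was 1.91-fold above the mean of the other 5 strains in FVB (limma adjusted p = 0.0208). FVB had a high median adipocyte level, whose part was not tested, and the second Idh1 probe set was not called (F 0.669). Gpx8, an endoplasmic reticulum peroxidase, was 1.92-fold lower in FVB (0.000706). Ptges, the glutathione-dependent prostaglandin E synthase, was 1.92-fold lower in C57BL/6 (0.000859) and 1.66-fold higher in AKR (0.00993). Cbs, which feeds cysteine supply, was 1.64-fold higher in AKR (0.00191) and 1.46-fold lower in BALB/c (0.0086).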
